A study of Mus musculus with 10 samples.

Results

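Btg2, Cyr61 and 7 further early-response genes were followed through single cells of the mouse medial prefrontal cortex. These 9 genes are switched on within minutes to hours of a stimulus and act downstream of, or beside, the better known immediate early transcription factors. They were picked by name, with earlier results of the same data known: Btg2 and Cyr61 were picked for their difference between ranks, so their rank values are given as a description without a test. All 9 genes were found in the gene lists of all 10 libraries, Cyr61 by its gene identifier ENSMUSG00000028195 because newer annotations call it Ccn1.

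The libraries came from C57BL/6N males over 2 months old. They had been ranked with the tube test, a contest decided by which mouse forces its opponent out of a tunnel, and tissue was taken a day after the last test. Rank 1 (social dominants) and rank 4 (subordinates) had 5 libraries each. Each library pooled punches from 2 to 3 mice, so the libraries, not mice or cells, are the replicates, and the rank labels of single mice within a pool were not analysed here.

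The tissue was digested with warm papain before droplet capture. Early-response genes are known from other work to rise during warm dissociation of brain tissue, and every library compared here was made with it. Levels below are therefore levels in dissociated cells.

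Of 64937 deposited barcodes, 46285 were kept as cells, 1445 to 12647 per library, and the libraries held 4442750 to 29278466 unique molecular identifiers (UMIs, counted transcripts). Libraries differed in depth, and at most 104 barcodes were shared by any of the 45 pairs of libraries, 1.70% of the smaller one. The cells fell into 12 named classes, among them 16535 excitatory neurons in 5 named layer subclasses, and 2053 cells stayed unnamed. Libraries of replicates 2 and 3 of both ranks stood apart from the others in several of the genes below, and their values are given one by one. The 9 genes gave between 5909 UMIs (Tiparp) and 27671 UMIs (Dusp1) over all barcodes.

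Early-response effectors translate a burst of signalling into a change in cell state. Growth factors, calcium entry and stress activate the MAP kinases and cAMP signalling, which act through factors such as CREB and SRF on promoters that are already open. Many of the products then limit the same signals: phosphatases switch the kinases off, and RNA-decay factors shorten the life of the transcripts. In neurons such genes follow synaptic activity, and in vessels they follow shear and growth factor signals.

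The 9 genes cover several roles. Btg2 is an antiproliferative protein that recruits the deadenylase complex to messenger RNA. Cyr61 is a secreted matrix protein that binds integrins and is a classic target of the YAP and TEAD factors. Ier2 and Ier5 are nuclear early-response proteins without a known enzymatic activity. Dusp1 and Dusp6 are phosphatases that inactivate MAP kinases, Dusp6 acting mainly on ERK in the cytoplasm. Gadd45b and Gadd45g are small stress-response proteins that bind kinases and take part in DNA demethylation. Tiparp is a mono-ADP-ribosyltransferase and a target of the aryl hydrocarbon receptor.

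The 4 promoter stretches here show the elements through which such genes are known to be read; they are shown because the same elements recur in only part of the set. They come from the RefSeq promoter table of GRCm38.p6, which matched 8 of the 9 genes; Ier2 had no entry. Each line runs 5′ to 3′ on the gene's strand, with capitals on the cAMP response element TGACGTCA, its shorter form TGACG, the TEAD motif CATTCC and the TATA box TATAAA.
Btg2: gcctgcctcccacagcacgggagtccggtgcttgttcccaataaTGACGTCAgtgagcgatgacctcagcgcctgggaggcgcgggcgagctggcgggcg
Dusp1: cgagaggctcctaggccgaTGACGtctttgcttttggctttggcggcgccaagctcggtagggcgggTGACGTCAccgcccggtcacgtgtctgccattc
Cyr61: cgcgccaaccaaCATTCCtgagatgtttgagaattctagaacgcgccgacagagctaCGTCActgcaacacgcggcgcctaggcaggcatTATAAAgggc
Gadd45g: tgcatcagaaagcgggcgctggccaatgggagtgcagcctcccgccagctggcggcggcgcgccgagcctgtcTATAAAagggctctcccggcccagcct
The Btg2 stretch is chr1:134079266-134079365 on the minus strand and the Dusp1 stretch is chr17:26508583-26508682 on the minus strand. The Cyr61 stretch is chr3:145650001-145650100 on the minus strand and the Gadd45g stretch is chr13:51846575-51846674 on the plus strand. Within the 250 bases before the start, the full cAMP response element was found in 2 of 8 members, against 1.55% of 32851 promoters, and its shorter form in 3 against 17.8%. The TATA box was found in 3 of 8 members against 12.4% of promoters, and the TEAD motif in 1, Cyr61, against 12.6%. The AP-1 motif TGAGTCA was found in 0 of 8 members against 4.46%, and the CArG box in 0 against 1.47%. Both strands were searched, the shorter form also counts inside the full element, and in the Cyr61 stretch it reads CGTCA because it lies on the other strand. The full element began 166 bases before the start of Btg2 and 143 bases before that of Dusp1, counted from the RefSeq starts. For Dusp1 the RefSeq start differs from the GENCODE gene, whose longer span on the same strand includes the printed stretch. A match says that these letters are present, and nothing about binding.

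In GENCODE M21 (GRCm38) Btg2 lies at chr1:134075170-134079120 with 2 exons, Cyr61 at chr3:145646976-145649981 with 5, Ier2 at chr8:84661331-84662852 with 1 and Ier5 at chr1:155096361-155099636 with 1, all on the minus strand. Dusp6 lies at chr10:99263231-99267489 with 3 exons, Gadd45b at chr10:80930073-80932204 with 4 and Gadd45g at chr13:51846678-51848468 with 4, all on the plus strand. Dusp1 at chr17:26505590-26562128 overlaps 4 other annotated genes, AC122252.1 and AC122252.4 on its own strand and Ergic1 and Gm8225 on the opposite strand, and Tiparp at chr3:65528410-65555518 overlaps 4931440P22Rik on the opposite strand. Reads shared with genes on the same strand could have been dropped in counting, so the level of Dusp1 carries that uncertainty. How strand was used in counting is not given in the sources used here, so Tiparp may carry it too.

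The first question was which cells held these transcripts. Levels are UMIs of a gene scaled to counts per 1000000 UMIs of all cells of that class in the library (CPM), given as mean ± SD over libraries and compared only within a gene. The vessel wall stood at the top for 8 of the 9 genes among the classes with at least 20 cells in at least 6 libraries, and microglia for Ier5. Excitatory neurons lay in the middle or lower part of the order for every gene.

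**Figure D1:**
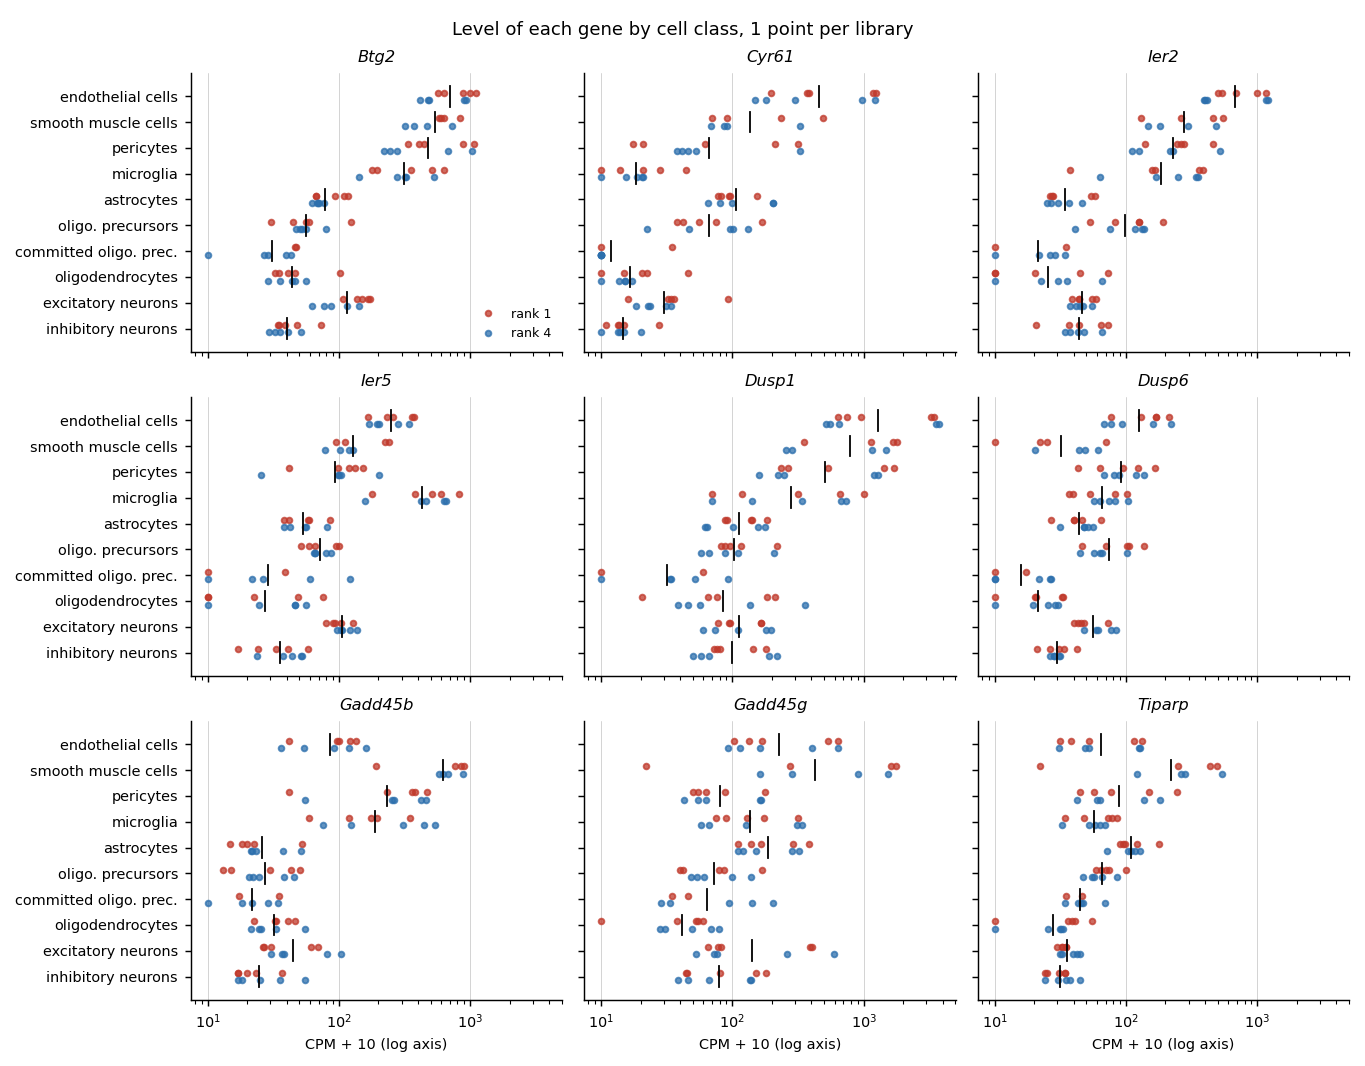
Level of each of the 9 genes (panels) in each cell class, as CPM + 10 on a log axis, with 1 point per library, red for rank 1 and blue for rank 4, and a black bar at the mean of the log values. Endothelial cells or smooth muscle cells sit highest for 8 genes, and microglia for Ier5.

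Btg2 was at 727 ± 247 CPM (SD, n = 10) in endothelial cells, 556 ± 174 CPM (n = 8) in smooth muscle cells and 549 ± 329 CPM (n = 10) in pericytes. Microglia held 336 ± 165 CPM of Btg2 and excitatory neurons 112 ± 37.8 CPM, a difference of 1.42 on the log2 scale that passed the exact sign-flip test over libraries (adjusted p = 0.0487). The 3 vessel classes did not differ from their neighbours in the order beyond that threshold.

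Cyr61 was at 610 ± 472 CPM in endothelial cells, far above 172 ± 156 CPM in smooth muscle cells, 105 ± 51.6 CPM in astrocytes and 103 ± 123 CPM in pericytes by the means. The SD was close to the mean in the vessel classes, and no neighbouring pair among these passed. Excitatory neurons held 23.9 ± 21.5 CPM of Cyr61, below oligodendrocyte precursors by 1.13 on the log2 scale (exact sign-flip test, adjusted p = 0.0487).

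Ier2 showed the clearest top class: endothelial cells held 737 ± 348 CPM, above smooth muscle cells by 1.38 ± 0.41 on the log2 scale in 8 of 8 libraries (exact sign-flip test, adjusted p = 0.0487). Ier5 was highest in microglia, at 472 ± 209 CPM, above endothelial cells at 248 ± 77.5 CPM by 0.80 ± 0.54 on the log2 scale in 9 of 10 libraries (exact sign-flip test, adjusted p = 0.0487). Excitatory neurons held 96.1 ± 17.7 CPM of Ier5, the smallest SD in relation to its mean of the 9 members in these cells.

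Dusp1 was at 1797 ± 1470 CPM in endothelial cells, 1008 ± 642 CPM in smooth muscle cells and 718 ± 603 CPM in pericytes. Microglia held 402 CPM of Dusp1 and excitatory neurons 112 CPM. Dusp6 was at 128 ± 56.9 CPM in endothelial cells, 88.8 CPM in pericytes and 47.8 CPM in excitatory neurons, and none of its neighbouring pairs passed. Perivascular macrophages, with at least 20 cells in only 2 libraries and therefore not tested, held 1325 CPM of Dusp1 and 521 CPM of Ier5, the latter above the mean of microglia.

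Both GADD45 genes were highest in smooth muscle cells. Gadd45b was at 673 ± 233 CPM there, above pericytes by 1.26 ± 0.64 on the log2 scale in 8 of 8 libraries (exact sign-flip test, adjusted p = 0.0487), and at 40.5 CPM in excitatory neurons. Gadd45g was at 812 ± 728 CPM in smooth muscle cells, 288 CPM in endothelial cells and 197 ± 193 CPM in excitatory neurons. Tiparp was at 291 ± 180 CPM in smooth muscle cells, 101 ± 28.9 CPM in astrocytes and 25.5 ± 5.03 CPM in excitatory neurons.

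Over all neighbouring pairs in the order, 13 of 81 passed, 3 of them among the 9 pairs at the top, and 0 passed with a stricter filter on cells. The sign-flip test takes the libraries as independent, whereas same-numbered libraries deviated together, so its p-values, here and for the layers, are too small; flipping signs over 5 replicate numbers could not go below 0.0625. Most neighbouring classes did not differ beyond the threshold. The share of all genes that pass the same test is not given here, so the counts, here and for the layers, cannot be called particular to the members.

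Within excitatory neurons the layers differed less. Only 3 of 36 neighbouring pairs of subclasses passed (exact sign-flip test, adjusted p = 0.0469): Ier2 and Ier5 were higher in L5 IT (layer 5 intratelencephalic) than in L2/3 IT neurons, by 0.85 and 0.55 on the log2 scale, and Ier5 was higher in L2/3 IT than in L5 PT (pyramidal tract) neurons by 0.33. These calls fell to 0 with a stricter filter on cells and with the mean over cells, and 9 pairs passed when the members took part in the clustering. Cyr61 had the widest range across layers. It was at 93.0 ± 75.9 CPM in L6 CT (corticothalamic) neurons, 32.7 CPM in L5/6 NP (near-projecting), 30.1 CPM in L5 PT, 9.37 CPM in L2/3 IT and 7.96 CPM in L5 IT neurons. L6 CT exceeded L5/6 NP in 7 of 7 libraries by 1.31 ± 1.05 on the log2 scale, but the exact sign-flip test gave p = 0.0156 and an adjusted p of 0.0804, and the difference was 0.81 without replicate 1.

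Shares of cells with at least 1 UMI gave the same layer for Cyr61. After each cell was thinned to 1000 UMIs, 5.84% of L6 CT neurons had a Cyr61 UMI (13.8% before thinning), against 1.01% in L2/3 IT and 0.749% in L5 IT neurons. Oligodendrocytes, which should hold little Cyr61, had a share of 0.694% after the same thinning (1.03% before, at a median of 1289 UMIs per cell), so the L2/3 IT and L5 IT shares are near background.

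For some members the same libraries were high in both endothelial cells and excitatory neurons.

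**Figure D2:**
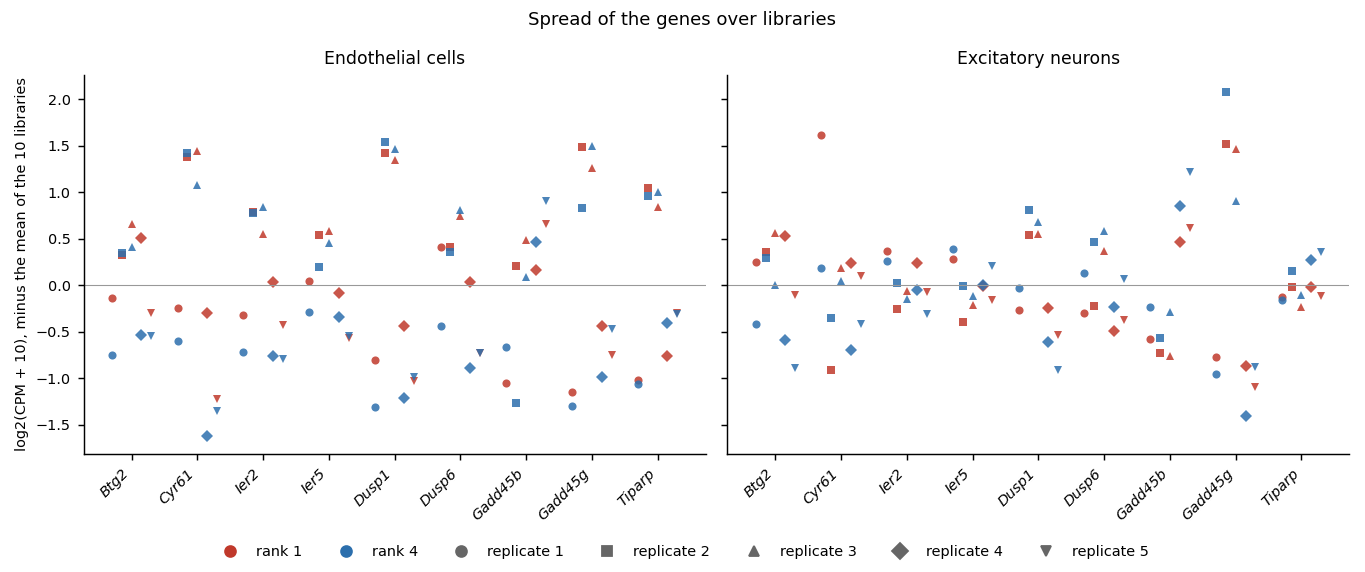
Level of each gene in every library, as log2(CPM + 10) minus the mean of the 10 libraries, in endothelial cells and excitatory neurons, with colour for rank and symbol for replicate number. Replicates 2 and 3 of both ranks sit at the top for Dusp1 in endothelial cells and for Gadd45g in excitatory neurons.

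In endothelial cells Dusp1 was at 730, 3437, 3271, 943 and 622 CPM in the rank 1 libraries, in the order of their replicate numbers 1 to 5, against 509, 3733, 3540, 548 and 639 CPM for rank 4 in the same order. Cyr61 was at 376, 1176, 1228, 361 and 186 CPM in the same rank 1 libraries and at 292, 1217, 956, 138 and 169 CPM in the rank 4 libraries. Replicates 2 and 3 of both ranks were the 4 highest libraries for both genes, with no overlap with the other 6.

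Tiparp followed the same libraries in endothelial cells, at 21.7, 123, 105, 28.0 and 42.4 CPM in rank 1 and at 20.8, 115, 119, 38.4 and 42.0 CPM in rank 4. Ier2 did so with a smaller distance, from 381 to 680 CPM in the 6 other libraries and from 978 to 1204 CPM in these 4. The ranks overlapped for every one of these genes.

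In excitatory neurons Gadd45g was at 72.1, 393, 377, 67.1 and 55.6 CPM in rank 1 and at 62.5, 583, 252, 42.8 and 66.5 CPM in rank 4. Dusp1 was at 84.0, 154, 155, 85.4 and 68.0 CPM in rank 1 and at 100, 188, 170, 63.7 and 49.7 CPM in rank 4. Again the libraries of replicates 2 and 3 were the highest in both ranks, so the spread of Gadd45g and Dusp1 ran between replicate numbers and not between ranks. Gadd45b ran the other way in these neurons: replicates 4 and 5 held 51.8 to 94.1 CPM and the others 16.6 to 28.1 CPM. Replicates 1 to 3 and replicates 4 and 5 also differ in the gene list their files carry, so the gene list and the replicate number cannot be told apart for Gadd45b.

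The spread was then set against the summed level of 22 immediate early genes in the excitatory neurons of each library, which ran from 1427 to 3302 CPM and was highest in rank 4 replicate 2. Over all 10 libraries the correlation passed for 2 of the 9 members, Dusp6 and Gadd45g. The permutation treats the libraries as exchangeable, whereas same-numbered libraries deviated together and the 4 highest sums were those of replicates 2 and 3, so these p-values are too small. No correlation over the 5 replicate numbers was computed. The share of all genes that pass the same correlation is not given here, so 2 of 9 has no background to be read against. Dusp6 had Pearson's r = 0.77 (permutation p = 0.0100, adjusted over the 9 members 0.0450) and Spearman's rho = 0.70 (permutation p = 0.0304, adjusted 0.180). Its r was 0.72 without the 2 libraries farthest from the median sum and 0.74 within the 6 libraries of replicates 1 to 3, and no r is given for the 4 libraries of replicates 4 and 5, which are under the minimum of 6 set for a correlation. Gadd45g passed by r (permutation p = 0.00144, adjusted 0.0130) and not by rho (0.67, permutation p = 0.0401, adjusted 0.180), but its libraries fell into separate clusters, replicates 2 and 3 against the rest, so no pooled r is printed for it.

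Over the 6 libraries of replicates 1, 4 and 5, a choice made after the values were seen, r was 0.36 for Dusp6 (exact permutation test, p = 0.532, adjusted 0.598) and -0.30 for Gadd45g (exact permutation test, p = 0.481, adjusted 0.598). Gadd45b had r = 0.89 over these 6 libraries (exact permutation test, p = 0.00278, adjusted 0.0250) and r = -0.36 over all 10 (permutation p = 0.305, adjusted 0.393). The 6 libraries are only 3 replicate numbers, and Gadd45b was at 20.2 and 28.1 CPM in replicate 1 against 51.8 to 94.1 CPM in replicates 4 and 5, so its relation there lies between separate clusters and is not read as one. No member therefore kept both its sign and its side of the threshold as a passing relation over both sets of libraries.

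Co-detection asked whether the members met in the same excitatory neurons. Cells were thinned to 1000 UMIs, which left 14481 cells, and the expected number of cells with both genes was taken within each library and subcluster. Of 36 pairs of members, 35 were found together more often than expected, with a median ratio of 1.98 and a range of 0.993 to 4.21. These ratios are descriptions over cells and carry no test.

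**Figure D3:**
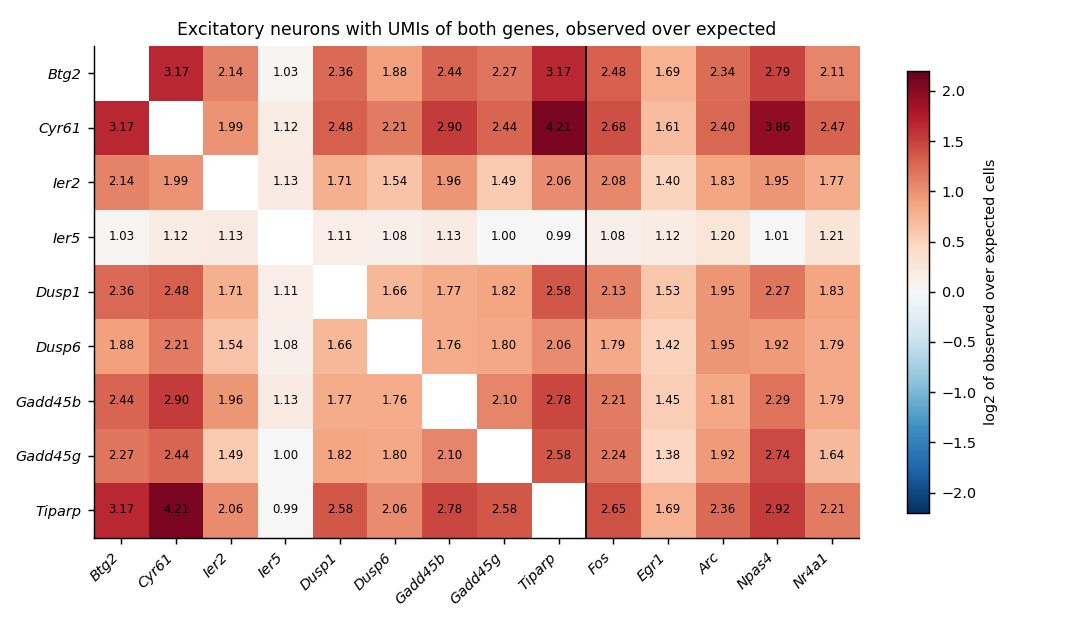
Ratio of observed to expected excitatory neurons holding both genes of a pair, printed in each cell and coloured on a log2 scale, for the 9 genes (rows) against each other and 5 activity genes (columns), after thinning to 1000 UMIs per cell. Pairs with Ier5 sit near 1 and the other member pairs between 1.49 and 4.21.

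Cyr61 and Tiparp had the highest ratio, with 25.9 cells against 6.15 expected (4.21), and Btg2 and Cyr61 met in 57.9 cells against 18.3 expected (3.17). Ier5 stood apart from the rest: its 8 pairs had ratios of 0.993 to 1.13, while the other 28 pairs had ratios of 1.49 to 4.21. The same held against Fos, Egr1, Arc, Npas4 and Nr4a1, markers of neuronal activity, with ratios of 1.01 to 1.21 for Ier5 and of 1.38 to 3.86 for the others. In endothelial cells the 36 member pairs had ratios of 0.868 to 1.41, and in microglia 31 pairs had ratios of 0.597 to 1.46.

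The genes whose levels were most like each member were found over 99 sums of a library and a class, among 13547 genes, by Pearson's r of log2 levels. Sums of 1 library share its depth and its handling, so these r are descriptions. Junb, an AP-1 subunit, was the most like gene for Btg2 (0.87) and for Dusp1 (0.88). Cyr61 was most like Id3 (0.80), Jag1 (0.80) and Bambi (0.79), and Gadd45b was most like Filip1l (0.87). Ier2 was most like H2-D1 (0.86), Btg2 (0.85) and Fosb (0.85). Tiparp was most like Coq10b (0.79), Gadd45g was most like Eif5a (0.74), and Ier5 reached 0.78 with Gsdmd, Nfkb1 and Anxa3. Dusp6 had the weakest likeness, 0.66 with Tap2 and H2-T22. Between members r ran from 0.20 to 0.85.

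Rank 1 was then compared with rank 4 within each class. Differences are log2 fold changes of rank 1 over rank 4 from edgeR, fitted over all genes of a class with the gene-list version as covariate, and p-values are adjusted over all genes of the class. They measure the spread between pooled libraries. Over all classes 0 of 61968 tests passed (0%), and over the excitatory subclasses 0 of 40544 (0%), so no gene, member or not, passed in the fit as designed. Same-numbered libraries of both ranks deviated together, and a fit with the replicate number as a block is given beside a value where it changes the call. The fit as designed leaves this pairing out, so its p-values may be too large. In edgeR 1442 of 61968 class tests had an unadjusted p under 0.05, and 6497 did with the block. That no gene passed is therefore not evidence that the ranks are alike.

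**Figure D4:**
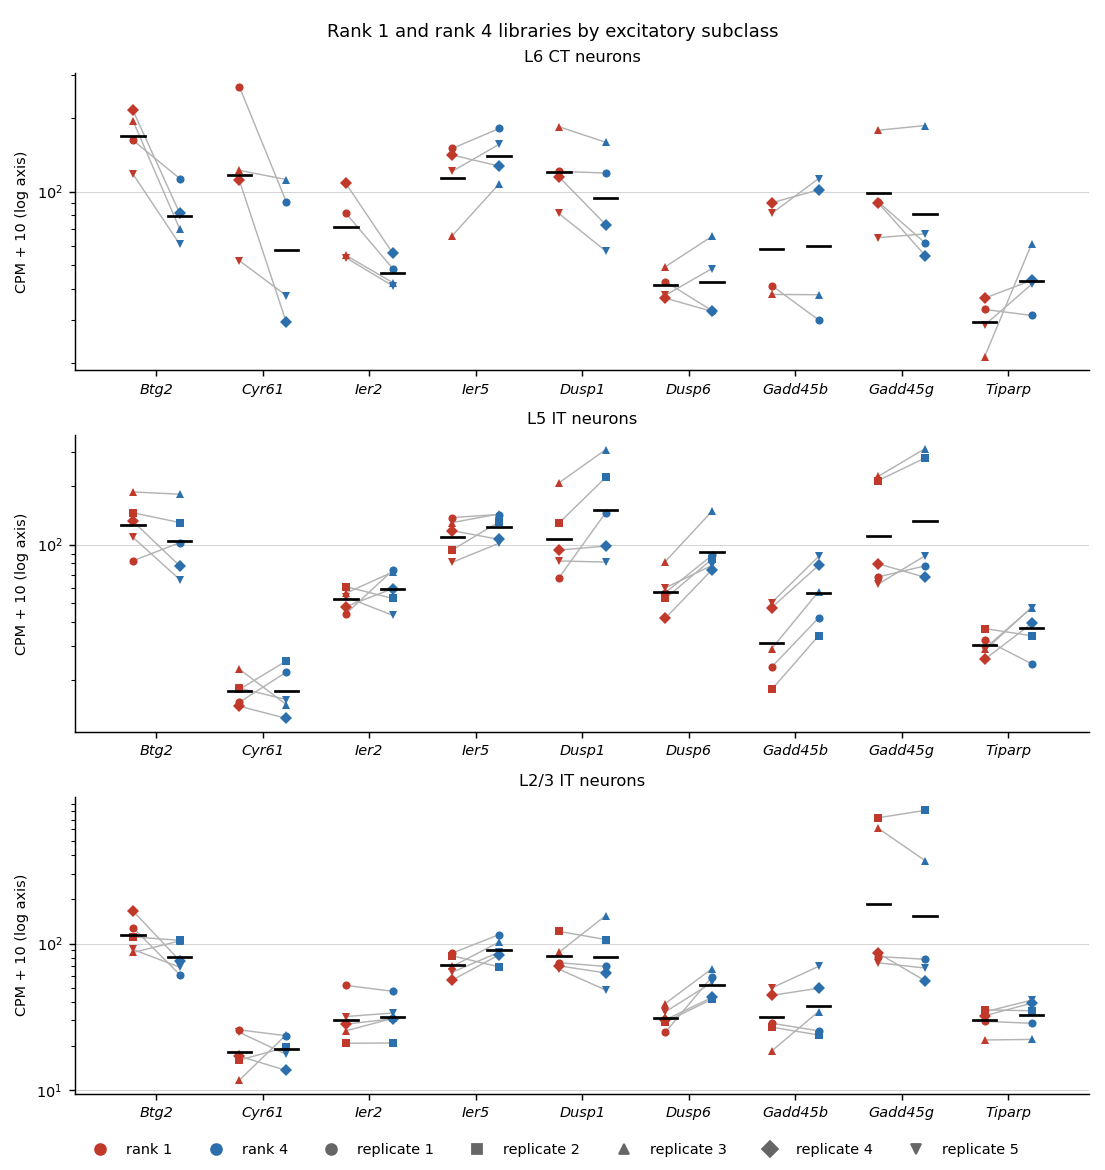
Level of each gene in rank 1 (red) and rank 4 (blue) libraries of 3 excitatory subclasses, as CPM + 10 on a log axis, with lines joining same-numbered libraries and a bar at the mean of the log values. In L6 CT neurons the 4 rank 1 libraries lie above the 4 rank 4 libraries for Btg2, and in L2/3 IT neurons the 5 rank 1 libraries lie below the 5 rank 4 libraries for Dusp6.

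Btg2 was at 128, 139, 162, 157 and 98.1 CPM in excitatory neurons of rank 1, by replicate number, against 76.8, 132, 106, 67.4 and 52.7 CPM in rank 4. Rank 1 was higher in 5 of 5 numbered pairs, and the groups overlapped. The difference was 0.70 ± 0.20 (log2, SE). Replicates 1 to 3 alone gave 0.44, and replicates 4 and 5 alone gave 1.11. It was above 0 in all 8 classes tested, from 0.22 to 0.70, and in all 5 subclasses, from 0.40 to 1.15. In oligodendrocyte precursors it was -0.05 in replicates 4 and 5 alone. In replicates 1 to 3 alone it was 0.00 in microglia and 0.04 in L5 IT neurons, against 0.54 and 0.88 in replicates 4 and 5 alone.

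The largest Btg2 difference was in L6 CT neurons, for which replicate 2 of both ranks held fewer than 20 cells and was left out. Btg2 was at 152, 185, 205 and 108 CPM there in rank 1 replicates 1, 3, 4 and 5 and at 103, 60.3, 71.5 and 50.9 CPM in rank 4. The groups did not overlap, as was the case in that direction for 0.514% of all genes tested in L6 CT neurons, and the difference was 1.15 ± 0.23. In all excitatory neurons no member had groups apart, against 0.219% of genes with rank 1 higher and 0.105% with rank 1 lower.

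Cyr61 was at 81.7, 5.97, 24.2, 25.6 and 22.1 CPM in excitatory neurons of rank 1 and at 24.1, 13.5, 21.1, 8.56 and 12.6 CPM in rank 4. Rank 1 replicate 1 stood far above the rest, and rank 1 was higher in 4 of 5 pairs. The difference was 1.05 ± 0.47 (log2, SE) with that library and 0.43 without it. In that library 314 Cyr61 UMIs came from 207 L6 CT neurons, 29 from 41 L5 PT neurons and 17 from 251 L2/3 IT neurons. L2/3 IT neurons were at 1.71 to 15.8 CPM in rank 1 and 3.65 to 13.9 CPM in rank 4. L5 IT neurons were at 4.68 to 12.8 CPM and 2.71 to 15.1 CPM. The part of the L6 CT cell number in the value of all excitatory neurons was not tested. In L6 CT neurons Cyr61 was at 258, 112, 101 and 42.2 CPM in rank 1 and at 80.9, 102, 19.3 and 27.6 CPM in rank 4, higher in 4 of 4 pairs with overlapping groups and a difference of 1.40 ± 0.27. Outside neurons Cyr61 had a difference of 0.41 ± 0.44 in endothelial cells, 0.03 ± 0.32 in oligodendrocyte precursors and -0.30 ± 0.28 in astrocytes, where rank 1 was lower in 3 of 5 pairs. The astrocyte value differed in sign between sets of replicates, at -0.67 in replicates 1 to 3 and 0.31 in replicates 4 and 5. Gene list and replicate number cannot be told apart here either.

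Depth moved with rank: the median UMIs per excitatory neuron were 2922 to 7464 by library in rank 1 and 1657 to 3097 in rank 4. After thinning every cell to 1000 UMIs, which left out 2054 neurons, 9.45% ± 1.65 of rank 1 and 6.55% ± 1.56 of rank 4 excitatory neurons had a Btg2 UMI (SD, n = 5 each). In L6 CT neurons the thinned shares were 12.2% ± 3.09 and 6.14% ± 1.68 for Btg2 and 7.92% ± 2.86 and 3.76% ± 1.94 for Cyr61 (n = 4 each). Summed endothelial markers in excitatory neurons were at 28.0 to 135 CPM in rank 1 and at 38.5 to 108 CPM in rank 4, and in L6 CT neurons at 21.5 to 101 CPM and 49.1 to 116 CPM. Of 19 marker lists of other cell types, 6 had a higher mean in rank 1 in excitatory neurons and 5 in L6 CT neurons. Microglial markers were at 63.2 to 458 CPM in rank 1 (mean 161) and at 72.8 to 252 CPM in rank 4 (mean 142) in excitatory neurons. Markers of cycling cells were at a mean of 18.4 CPM in rank 1 and 8.19 CPM in rank 4 in excitatory neurons, and at 20.4 and 7.17 CPM in L6 CT neurons. The part of these other RNAs in the rank values was not tested.

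The other 7 members were tested 55 times in classes, with 0 passing. An unadjusted p under 0.05 was reached 4 times, all with rank 1 lower (1.13% of all class tests were lower at that level and 1.20% higher), and DESeq2 passed 0. With the replicate block 2 of 55 passed, both lower in rank 1, against 0.307% of all tests lower and 0.0597% higher.

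**Figure D5:**
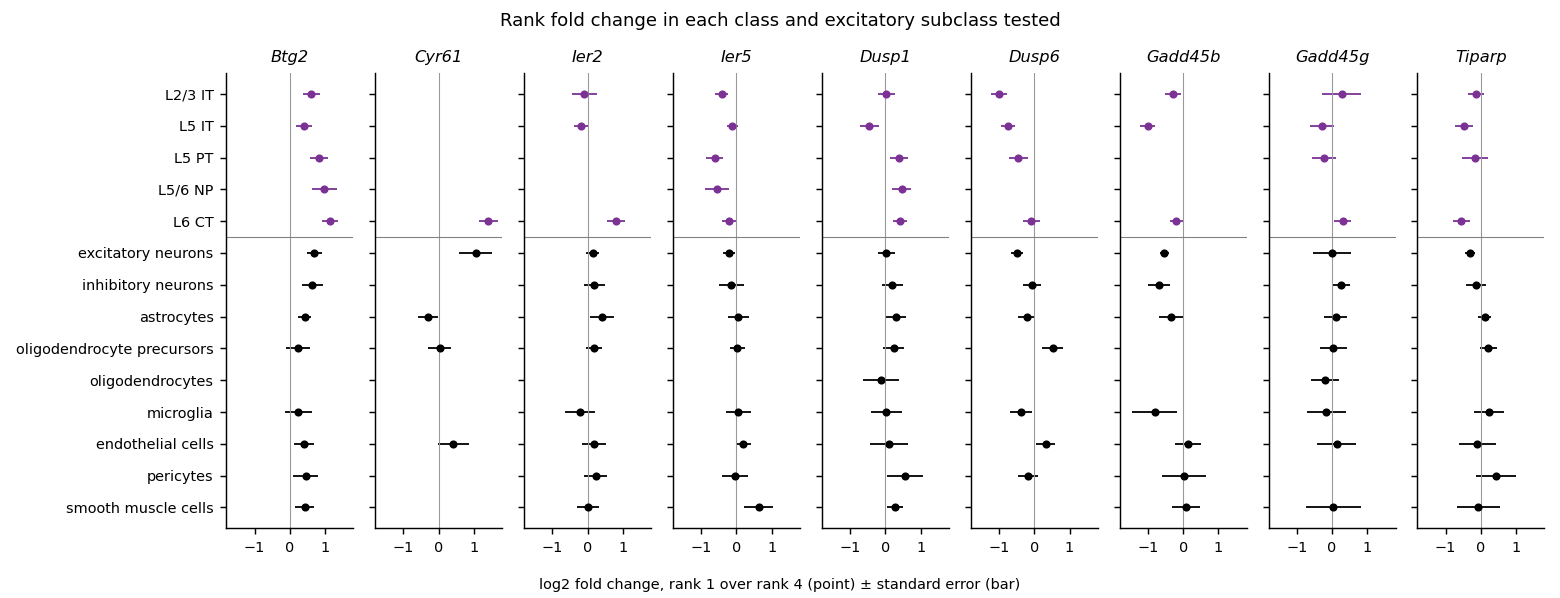
Log2 fold change of rank 1 over rank 4 (point) with its SE (bar) for each gene in each class (black) and excitatory subclass (purple) tested. Btg2 lies above 0 in every class and subclass tested, and Dusp6, Gadd45b, Ier5 and Tiparp lie below 0 in every excitatory subclass tested, although Tiparp in L2/3 IT and L5 IT and Ier5 in L5/6 NP neurons were at 0.04 in replicates 1 to 3 alone, as Dusp6 (0.11) and Gadd45b (0.49) were above 0 in L6 CT neurons.

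Both were in excitatory neurons. Dusp6, the ERK phosphatase, was at 35.6, 38.0, 62.6, 29.9 and 33.4 CPM in rank 1 and at 51.3, 67.3, 73.8, 37.8 and 48.8 CPM in rank 4, lower in 5 of 5 pairs with overlapping groups. Its difference was -0.49 ± 0.17 (edgeR, adjusted p = 1.000), and with the replicate block it was -0.49 with an adjusted p of 0.0325. Gadd45b was at 20.2, 17.1, 16.6, 51.8 and 59.0 CPM in rank 1 and at 28.1, 20.4, 26.8, 71.0 and 94.1 CPM in rank 4, also lower in 5 of 5 pairs. Its difference was -0.53 ± 0.13 (edgeR, adjusted p = 1.000), and with the replicate block the adjusted p was 0.0282.

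In the subclasses the 7 members were tested 28 times, with 0 passing and DESeq2 passing 0. An unadjusted p under 0.05 was reached 8 times, 2 with rank 1 higher and 6 lower, where 1.66% and 2.37% of all subclass tests did so. With the replicate block 5 of 28 passed, 1 higher and 4 lower, against 0.146% and 0.407% of all tests.

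L2/3 IT neurons held Dusp6 at 14.8, 19.3, 29.0, 20.2 and 24.2 CPM in rank 1 and at 49.5, 31.7, 57.5, 32.9 and 44.3 CPM in rank 4. The groups did not overlap, which held in that direction for 0.186% of genes tested there. The difference was -1.01 ± 0.23 (edgeR, adjusted p = 0.999), and with the replicate block the adjusted p was 0.00738.

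L5 IT neurons held Gadd45b at 13.4, 7.92, 19.1, 37.4 and 40.3 CPM in rank 1 and at 31.9, 23.9, 47.3, 68.2 and 76.9 CPM in rank 4. It was lower in 5 of 5 pairs, by -1.01 ± 0.20 on the log2 scale (edgeR, adjusted p = 0.955, and 0.000186 with the replicate block). These values rest on 5 to 222 UMIs of Gadd45b per library. Dusp6 was at 46.5, 42.8, 71.8, 31.7 and 49.9 CPM in rank 1 and at 78.1, 74.3, 139, 64.4 and 68.2 CPM in rank 4, a difference of -0.74 ± 0.20 (edgeR, adjusted p = 0.955, and 0.00102 with the replicate block). Dusp1 in these neurons had a difference of -0.45 ± 0.28 (edgeR, adjusted p = 0.958, and 0.0336 with the replicate block), with -0.77 in replicates 1 to 3 alone and 0.01 in replicates 4 and 5 alone.

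L6 CT neurons held Ier2 at 71.6, 44.9, 98.0 and 43.7 CPM in rank 1 and at 38.5, 32.5, 46.0 and 31.2 CPM in rank 4, higher in 4 of 4 pairs. The difference was 0.81 ± 0.26 (edgeR, adjusted p = 1.000), and with the replicate block it was 0.80 with an adjusted p of 0.0160. Dusp1 was also higher in 4 of 4 pairs in L6 CT neurons, by 0.42 ± 0.20 (edgeR, unadjusted p = 0.0468, adjusted p = 1.000). Its values in the subclasses had no common direction, with 0.38 ± 0.26 in L5 PT, 0.47 ± 0.27 in L5/6 NP and 0.02 ± 0.24 in L2/3 IT neurons, the last at -0.23 in replicates 1 to 3 alone. Gadd45g had a difference of 0.30 ± 0.25 in L6 CT neurons (edgeR, adjusted p = 1.000). The thinned share of L6 CT neurons with an Ier2 UMI was 5.71% in rank 1 and 3.77% in rank 4. For Dusp6 the thinned shares in all excitatory neurons were 3.70% ± 1.08 in rank 1 and 5.15% ± 0.961 in rank 4.

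Gadd45g and Dusp1 had differences of 0.00 ± 0.53 and 0.03 ± 0.23 between ranks in excitatory neurons (edgeR, adjusted p = 1.000 for each). With the replicate block the values were 0.09 ± 0.14 for Gadd45g and 0.04 ± 0.12 for Dusp1, and neither passed (edgeR, adjusted p = 0.835 and 0.922).

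The other early-response genes of excitatory neurons gave a measure of the setting in which the members lay. Of 22 immediate early transcription factors and effectors, 21 were tested and 18 had values lower in rank 1, with a median of -0.28 on the log2 scale against 0.00 over all genes. None passed in edgeR, and 5 had an unadjusted p under 0.05, all lower in rank 1, where 2.16% of all genes were lower at that level and 1.68% higher. They were Fosl2 (-0.48), Egr1 (-0.55), Egr3 (-0.40), Nr4a1 (-0.51) and Nr4a3 (-0.39), all transcription factors, and with the replicate block Egr1 (adjusted p = 0.0358) and Nr4a1 (adjusted p = 0.0359) passed. Btg2 had a value on the other side of 0 from 18 of these 21 genes in the same cells. Because Btg2 was picked for its rank difference, its side of 0 was known beforehand and is no result of this comparison. Dusp6 and Gadd45b had a value on the same side as the 18 genes. These differences between genes were not tested.

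In L6 CT neurons 18 of the immediate early list were tested, 8 with values higher and 10 lower in rank 1, at a median of -0.08. Klf6 (0.53) and Npas4 (0.44) were higher and Egr3 (-0.46) lower at an unadjusted p under 0.05, where 1.35% of all genes were higher and 2.82% lower, and none passed in edgeR.

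The lists nearest to each member are described by their counts. The BTG and TOB family with the deadenylases, the partners of Btg2, had 3 of 8 genes higher and 5 lower in rank 1 in excitatory neurons (median -0.06), and 2 higher and 6 lower in L6 CT neurons (median -0.05). The CCN family and YAP-TEAD targets, the relatives and pathway of Cyr61, had 4 of 8 tested genes higher and 4 lower (median 0.00), and 1 higher and 3 lower in L6 CT neurons (median -0.14). None of these reached an unadjusted p under 0.05.

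The further dual-specificity phosphatases had 2 higher and 4 lower of 6 tested in excitatory neurons (median -0.05), with Dusp5 at -0.65 (unadjusted p under 0.05, adjusted p = 1.000 in edgeR), and 2 higher and 2 lower in L6 CT neurons (median -0.04). The Sprouty, Spred and ETV genes, feedback inhibitors and targets of ERK like Dusp6, had 1 higher and 6 lower of 7 in excitatory neurons (median -0.24), and 0 higher and 6 lower of 6 in L6 CT neurons (median -0.20), none at an unadjusted p under 0.05.

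A list of Gadd45a, the stress kinase Map3k4 and the p53-response genes Cdkn1a, Mdm2, Ccng1 and Trp53inp1 had 2 higher and 4 lower of 6 in excitatory neurons (median -0.06) and 1 higher and 4 lower of 5 in L6 CT neurons (median -0.09). Among them Cdkn1a, a cell cycle inhibitor, was at -0.77 ± 0.23 in excitatory neurons (edgeR, unadjusted p = 0.00639). It did not pass after adjustment, and it passed with the replicate block (edgeR, adjusted p = 0.0219). The aryl hydrocarbon receptor genes around Tiparp had 1 higher and 2 lower of 3 in both excitatory neurons (median -0.06) and L6 CT neurons (median -0.03). The relatives of Ier2 and Ier5 had 0 higher and 2 lower of 2 in both (medians -0.31 and -0.14).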

How the data were processed

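Single cells of the medial prefrontal cortex were measured in 10 libraries. The authors deposited raw UMI counts per gene and barcode, with no normalization. Cell Ranger 4.0.0 and mm10 are named in the submitters' processing notes, while per the file headers replicates 1 to 3 carry version 3.1.0 and replicates 4 and 5 version 4.0.0, with gene lists of 31053 and 32285 genes. The 30406 genes in both lists were used, holding 99.4% to 99.9% of UMIs. Files also list genes and barcodes, used as deposited.

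Barcodes with at least 500 genes and at most 15% mitochondrial UMIs were kept. Scrublet (expected rate 0.06) marked 3095 doublets, which were removed; it called 0 cells in replicate 1 of both ranks, where the median threshold of the other libraries, 0.247, was used instead. Cells were clustered with scanpy 1.11.5 (2000 variable genes, 30 components, 15 neighbours, Leiden resolution 1), leaving the 9 genes and other early-response genes out of the variable genes, and clusters were named from marker lists. Counts were summed per library and class (at least 20 cells, at least 3 libraries per rank). Rank was tested with edgeR 4.0.16 (quasi-likelihood, TMM, low counts filtered, gene-list version as covariate, Benjamini-Hochberg), with DESeq2 1.42.0 as an alternative. The filter on low counts left 67 of 81 class tests and 34 of 45 subclass tests of the 9 genes. Levels were compared between neighbouring classes with an exact sign-flip test on log2(CPM + 10). Correlations used 100000 resamples. The statistics were tested on simulated data. The simulated libraries had no shared deviation by replicate number, so the simulation does not cover that trait of the data.

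The 9 genes and all gene lists were chosen with earlier results of these data known. The 9 genes are all named; genes of the lists are named where the unadjusted p was under 0.05 in excitatory or L6 CT neurons. Same-numbered libraries of both ranks deviated together, with r of 0.54 to 0.91 in 3 classes and 0.59 to 0.71 in L6 CT neurons, so the replicate numbers were taken to pair the libraries. In 5 of 19 cases a library of another number was more alike than the one of the same number.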

Additional observations from a re-analysis of the deposited data

Results flagged for a closer look

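In 3 of 36 groups of libraries 1 library lay far from the others of its rank, where chance gives about 5%. Cyr61 was at 81.7 CPM in excitatory neurons of rank 1 replicate 1, and its gap to the next library was 0.741 of the range of its rank. Dusp6 was at 62.6 CPM in excitatory neurons of rank 1 replicate 3, with a gap of 0.752 of the range. Gadd45g was at 176 CPM in L6 CT neurons of rank 4 replicate 3, with a gap of 0.905 of the range, and replicate 3 was also the highest library of rank 1, at 168 CPM.

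Dusp6 had rank differences of opposite sign between classes. Oligodendrocyte precursors had more of it in rank 1 in every numbered pair (0.52 ± 0.29 on the log2 scale, SE, 5 of 5), and excitatory neurons had less in every pair. The value in the precursors did not pass (edgeR, unadjusted p = 0.0942, and adjusted p = 0.444 with the replicate block). The difference between both effects was 1.01 for all excitatory neurons (exact permutation test, p = 0.0556, adjusted over 4 such differences 0.0741), 1.53 for L2/3 IT (exact permutation test, p = 0.0238, adjusted 0.0476), 1.26 for L5 IT (exact permutation test, p = 0.0238, adjusted 0.0476) and 0.98 for L5 PT neurons (exact permutation test, p = 0.143, adjusted 0.143). These differences were tested after they had been seen, and this permutation ignores the replicate numbers. A sign-flip test over the 5 numbered pairs, added after seeing the data, gave an exact p of 0.0625 for each, which is the smallest that 5 pairs allow. These contrasts were picked for having the same sign in every pair, which fixes the sign-flip p and makes the permutation p-values too small. The adjustment covers only the 4 picked contrasts. Neither test therefore says anything for or against a difference.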

How the results depend on the processing

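For rank in cell classes, 0 genes passed. DESeq2 passed 1, no filter on low counts 57, the replicate block 227, a stricter cell filter 2, replicates 4 and 5 alone 1, and leaving out a library 0 to 4 (4 without rank 1 replicate 1 or rank 1 replicate 3). In the subclasses 0 passed, against 5 with at least 50 cells, 68 with no filter, 224 with the replicate block, 1 within replicates 4 and 5, and 0 to 1 leaving out a library. Of the 7 members the replicate block passed 2 tests in classes and 5 in subclasses, where no filter passed 4. The block changed no other call of a member. The 13 class pairs that passed became 0 with the stricter cell filter and 0 without any replicate number; the 3 subclass pairs became 9 with the members in the clustering, and 0 with the mean over cells, with the stricter filter and without any replicate number. Without a replicate number 8 libraries remain, whose smallest sign-flip p is 0.00781 against 0.00195 with 10, so those counts of 0 say nothing about stability. Other causes were not tested.

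The correlation with the immediate early sum passed for 2 members, for 3 with the stricter filter, and for 1 over the 6 libraries of replicates 1, 4 and 5, a set chosen after seeing the data. There r changed sign for Btg2 (-0.64 from 0.27), Dusp1 (-0.64 from 0.73), Gadd45b (0.89 from -0.36) and Gadd45g (-0.30).

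Over all rank differences of the 9 genes, the sign turned in 14 of 62 class values within replicates 1 to 3, 9 of 60 within replicates 4 and 5 and 6 of 67 with the replicate block, and in 6 of 32, 2 of 34 and 0 of 34 subclass values. Among them are Dusp1 in L2/3 IT (-0.23) and Tiparp in L2/3 IT (0.04) and L5 IT (0.04) and Ier5 in L5/6 NP (0.04) within replicates 1 to 3, and Ier2 in L5 IT (0.03) and Cyr61 in astrocytes (0.31) within replicates 4 and 5. The sign also turned for Dusp1 in L5 IT (0.01 within replicates 4 and 5) and in excitatory neurons (-0.09 with no covariate, -0.24 within replicates 1 to 3, and from -0.09 to 0.20 leaving out a library, below 0 without rank 1 replicate 4, rank 4 replicate 1 or rank 4 replicate 5), Dusp6 in L6 CT (0.11 with the stricter filter and within replicates 1 to 3, and from -0.25 to 0.21 leaving out a library, the latter without rank 4 replicate 5), Gadd45b in L6 CT (0.49 within replicates 1 to 3) and Ier2 in excitatory neurons (-0.02 within replicates 1 to 3). The fits within replicates 1 to 3 and 4 and 5 were added after seeing the data.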
